A study of Mus musculus with 14 samples.

Results

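Embryoid bodies of a Foxk1 knockout (KO) mouse embryonic stem cell line, treated with the small molecule IWR1, were compared at day 10 of differentiation with untreated embryoid bodies of the same line. The comparison holds 4 of the 14 libraries of the study, chosen by their labels alone: 2 of KO with IWR1 and 2 of KO without it. Embryoid bodies are the aggregates that embryonic stem cells form in suspension, and here they were grown in shaken culture in a medium meant to give mesoderm, from cells freed of fibroblast feeders by a plating step. A further 2 day-10 libraries of the control line, iHA-Foxk1, entered the same fit and give the level against which both KO groups can be read. The other 8 libraries, control and KO at days 3 and 5, were not used. Both KO groups carry the same Foxk1 knockout, so the knockout itself is not what is compared. The KO is a single line, and the dose of IWR1, the days on which it was given and any vehicle given to the untreated embryoid bodies are missing from the labels used here. Nothing in the labels says whether the 2 libraries of each group are from different cultures, so the p-values measure the spread between these libraries, which may be technical.

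IWR1 acts on the canonical Wnt pathway. Without a Wnt ligand, a destruction complex built on the scaffold protein Axin marks beta-catenin for degradation. A Wnt ligand that binds a Frizzled receptor with its co-receptor stops this, and beta-catenin then enters the nucleus and activates genes together with TCF and LEF proteins. Tankyrases mark Axin for degradation, and IWR1 inhibits them, which stabilises Axin and lowers beta-catenin. In differentiating stem cells Wnt signalling is first needed to form mesoderm and later holds back the heart muscle fate, and cells that do not receive it early tend toward neural fates.

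Gene expression was measured as estimated counts per gene, and levels are given as CPM, counts scaled to a common library size (TMM-corrected totals). CPM are not divided by gene length, so they compare libraries for a gene and not genes with each other. The 4 libraries held 34466708 to 52747273 counts, and a count of 3 in a library stood for 0.0621 to 0.0827 CPM. The log-scale CPM of the 2 replicates correlated across genes at r = 0.974 with IWR1 and r = 0.975 without, genes not being independent replicates. On a principal component that held 48.6% of the variance, the IWR1 libraries lay at 102 and 66.1 and the other 4 libraries between -53.9 and -20.0, so IWR1 replicate 1 lay farthest out. Foxk1 itself (chromosome 5, 142401497 to 142462011) was at 71.3 and 41.8 CPM in the libraries labelled KO, 26.4 and 52.9 CPM with IWR1 and 65 and 80.1 CPM in control. These ranges overlapped between the KO groups, and no difference was called (log2 fold change -0.51 ± 0.40, adjusted p = 0.396). The targeted gene therefore does not check the KO labels at day 10, and the labels do not state which part of it was deleted. All 4 Y-linked genes tested were detected in all 6 libraries, and 0 were called by edgeR or DESeq2 (2 had an unadjusted p under 0.05).

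Of 17022 genes tested, 2358 (13.9%) were called at an adjusted p under 0.05: 983 (5.77%) were higher with IWR1 and 1375 (8.08%) were lower. The median log2 fold change of all genes tested was -0.0054. Log2 fold changes are given as IWR1 minus untreated KO with their SE, and each adjusted p comes from the quasi-likelihood test of edgeR, corrected by Benjamini and Hochberg's method across every gene tested. Scaling by library totals in place of TMM gave 1061 genes higher and 889 lower, so the split between the directions depends on the scaling. Without IWR1 replicate 1 the split turned, with 318 genes higher and 230 lower. The number of calls also depends on single libraries: 548 genes were called without IWR1 replicate 1, 947 to 1067 without a KO library, 980 to 1000 without a control library, and 3056 without IWR1 replicate 2. Of the 259 genes named by the rule for this comparison 202 were called, 92 of them in all 6 fits that each left out a library, and 101 calls were lost without IWR1 replicate 1. None of the 202 changed direction under any setting tried.

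**Figure D1:**
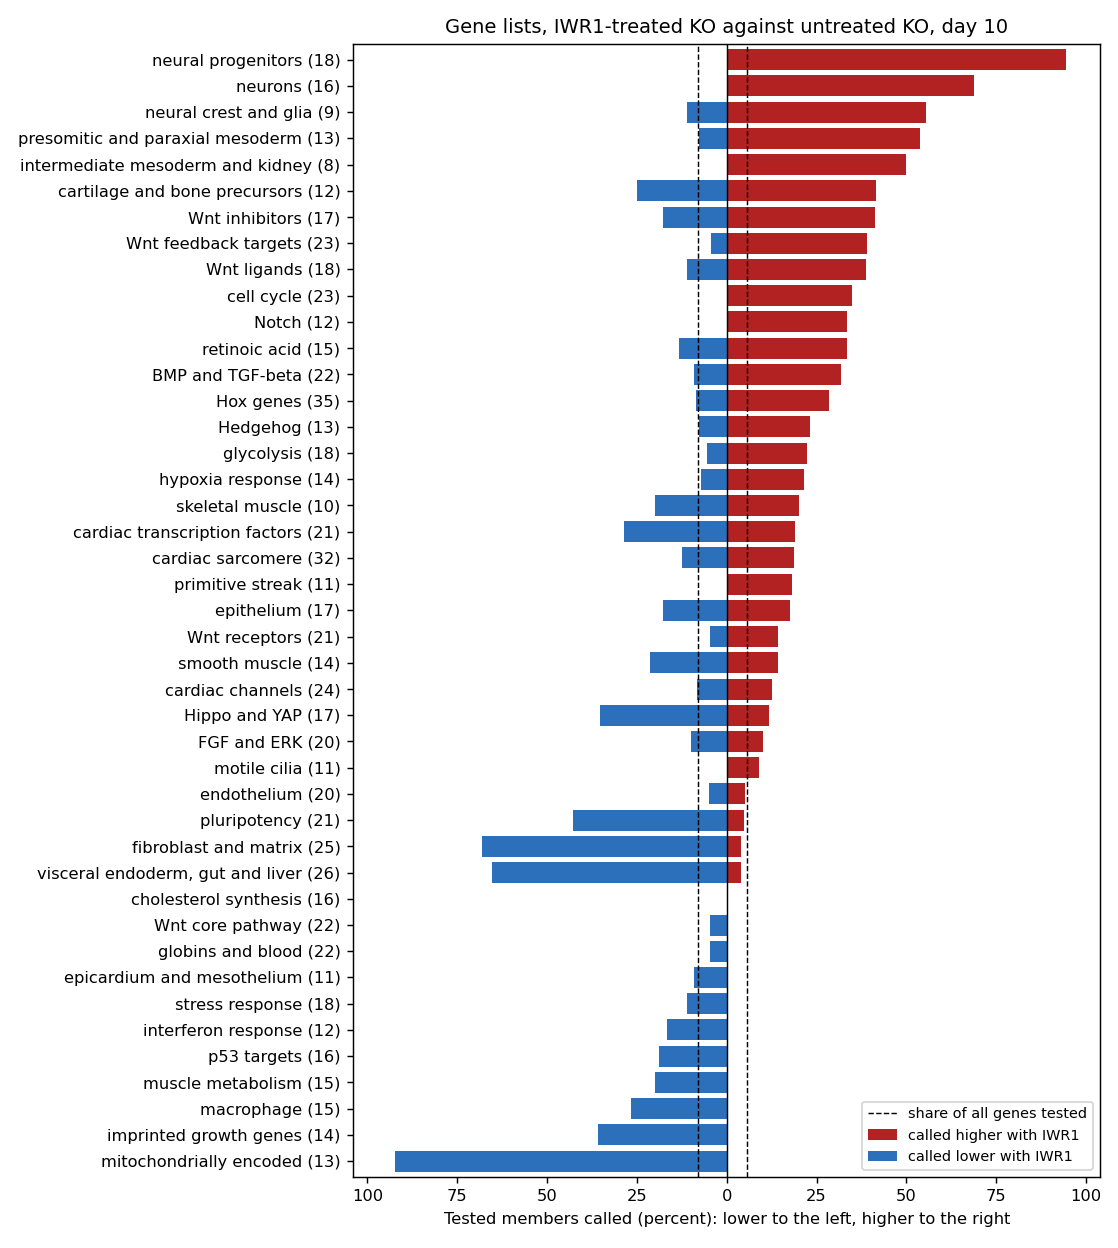
Share of the tested members of 43 gene lists called higher (right, red) or lower (left, blue) in IWR1-treated against untreated KO embryoid bodies at day 10, with the number tested in brackets. The dashed lines mark the share of all genes tested, 5.77% higher and 8.08% lower. Neural progenitor genes stand at the top with 17 of 18 called higher, and mitochondrially encoded genes at the bottom with 12 of 13 called lower.

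The genes that rose most included many of the early nervous system. The 15 largest rises among genes with a mean of at least 5 CPM included Sox10, Hes5, Msx3, Wnt1, Wnt3a, Rfx4, Pax3, Stmn3, Pou3f3, Sox21, Nkx6-1, Hoxb1, Pax6 and Irx2. Among them are transcription factors of the neural tube, hindbrain and neural crest. Msx3, a homeobox gene of the dorsal neural tube, was at 0.0243 and 0.137 CPM in untreated KO, 9.27 and 10.7 CPM with IWR1 and 0.07 and 0.132 CPM in control (6.95 ± 0.59, adjusted p = 0.00665), so the IWR1 libraries stood above both other groups. Rfx4, a factor of neural progenitors and their cilia, went from 0.267 and 0.492 to 13 and 22.3 CPM (5.54 ± 0.53, adjusted p = 0.00675). Nkx6-1, of the ventral neural tube, went from 0.388 and 0.41 to 14.6 and 11.6 CPM (5.03 ± 0.32, adjusted p = 0.00517). Of these 15 calls, that on Hoxb1 was lost without IWR1 replicate 1 and that on Wnt3a without either KO library.

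Genes for the specification of neural progenitors rose almost as a block. Of the 18 tested members of that list, 17 were called higher and 0 lower, beside 5.77% of all genes called higher, and the median log2 fold change was 4.32. Pax6 (chromosome 2, 105668900 to 105697364), a regulator of forebrain and spinal cord progenitors, was at 0.388 and 0.547 CPM in untreated KO, 12.8 and 13.1 CPM with IWR1 and 1.26 and 1.43 CPM in control. Its log2 fold change was 4.79 ± 0.32 (adjusted p = 0.00517), and the 2 libraries of each group lay close together. Sox1, the earliest marker of neural plate, rose from 0.728 and 0.847 to 13 and 17.6 CPM (4.28 ± 0.32, adjusted p = 0.00538). Hes5, a Notch effector that keeps progenitors dividing, rose from 0.0485 and 0.137 to 9.81 and 13.8 CPM (6.98 ± 0.75, adjusted p = 0.00811). Fabp7, a fatty acid binding protein of radial glia, rose from 1.94 and 4.43 to 69.6 and 61.7 CPM (4.37 ± 0.43, adjusted p = 0.00675). Six3, of the anterior forebrain and eye field, had 0 counts in both untreated KO libraries and 4.1 and 2.18 CPM with IWR1, at least 84.9-fold higher with untreated KO set at 3 counts in all. Control held Six3 at 1.77 and 1.64 CPM. The count for this list was 14 to 16 in the fits that left out a library.

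Neuronal genes rose as well, and so did part of the neural crest list. Of 16 neuron genes tested 11 were called higher, beside 5.77% of all genes, and 0 lower. The median log2 fold change was 2.78, and all 16 had a positive fold change. Tubb3 (chromosome 8, 123411424 to 123422015), a neuron-specific tubulin, was at 7.28 and 7.9 CPM in untreated KO, 101 and 155 CPM with IWR1 and 9.75 and 9.61 CPM in control. The groups did not overlap, and the log2 fold change was 4.08 ± 0.28 (adjusted p = 0.00538). Map2, a dendritic microtubule protein, rose from 6.31 and 6.78 to 35.8 and 51.2 CPM (2.73 ± 0.25, adjusted p = 0.00675). Gap43, of growing axons, rose from 11.3 and 8.64 to 51.4 and 48.7 CPM (2.32 ± 0.24, adjusted p = 0.00751). Nefl, the light neurofilament chain, rose from 7.01 and 5.17 to 38.5 and 54.5 CPM (2.93 ± 0.28, adjusted p = 0.00675), but its exons overlap those of its neighbour Nefm in the annotation.

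In the neural crest and glia list 5 of 9 tested genes were called higher and 1 lower, beside 5.77% and 8.08% of all genes. The lower one, Snai2, was called in none of the 6 fits that left out a library. The summed level of the list was 181.9 and 145.1 CPM in untreated KO and 179.7 and 237 CPM with IWR1, which overlap. Control stood at 179.8 and 219.2 CPM on this sum. Sox10 (chromosome 15, 79154908 to 79165240), which marks migrating crest and glia, had 3 counts in the untreated KO libraries together and stood at 6.91 and 16.3 CPM with IWR1. The ratio of counts per library size was 283, with a 95% counting interval of 96.6 to 1376 that covers counting error only. Tfap2a, a factor of crest induction, rose from 1.29 and 0.902 to 12 and 16.1 CPM (3.67 ± 0.34, adjusted p = 0.00675). Tfap2b rose from 0.291 and 0.383 to 4.51 and 12.7 CPM (4.66 ± 0.64, adjusted p = 0.0131). Foxd3, of early crest, was at 0.121 and 0.0547 CPM untreated and 0.559 and 1.16 CPM with IWR1 (3.21 ± 0.70, adjusted p = 0.0331), and its call was lost in all 6 fits that left out a library. In bulk RNA, more cells of a type and more RNA per cell cannot be told apart, here and for each marker list that follows.

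**Figure D2:**
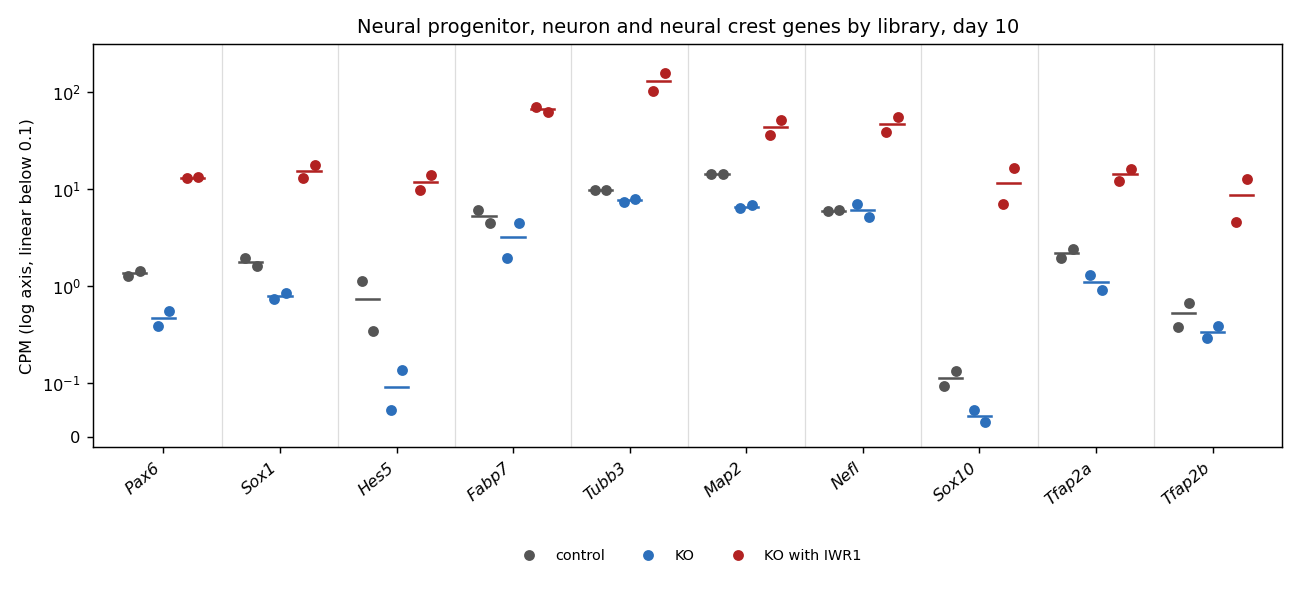
CPM of 10 neural progenitor, neuron and neural crest genes in each day-10 library (points) with the mean of the 2 libraries of a group (bars), on an axis that is logarithmic above 0.1 CPM. Both IWR1 libraries (red) lie above both untreated KO libraries (blue) for all 10 genes, for Tubb3 at 101 and 155 against 7.28 and 7.9 CPM, and above both control libraries (grey).

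Regional identity was read from Hox genes and from signals that pattern the neural tube. Of 35 Hox genes tested, 10 were called higher, beside 5.77% of all genes, and 3 lower. The median log2 fold change was 0.052. Paralog groups with low numbers, expressed in the hindbrain, led the rises: Hoxb1 went from 0.267 and 0.711 to 12.5 and 14.8 CPM (4.81 ± 0.76, adjusted p = 0.0171). Hoxb2 went from 7.62 and 9.29 to 34 and 36.4 CPM (2.06 ± 0.21, adjusted p = 0.00729). Hoxa2 went from 1.5 and 1.91 to 12.1 and 16.1 CPM (3.04 ± 0.41, adjusted p = 0.0127), though a predicted gene overlaps its exons. The 3 called lower, Hoxc8, Hoxa13 and Hoxd8, are a share of the list near the 8.08% of all genes called lower, and none of these calls was made without IWR1 replicate 1 or without a KO or control library. The count of higher Hox genes was 3 without IWR1 replicate 1 or either KO library. It was 7 without IWR1 replicate 2 and 8 without a control library.

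Retinoic acid genes included some of the steepest rises outside the neural lists, with 5 of 15 tested called higher and 2 lower. These calls made up 46.7% of the list, beside 13.9% of all genes. Crabp1 (chromosome 9, 54764748 to 54773110), which binds retinoic acid in the cytoplasm, was at 21.5 and 38.7 CPM in untreated KO, 487 and 511 CPM with IWR1 and 11.1 and 12.4 CPM in control (4.05 ± 0.33, adjusted p = 0.00573). Crabp2, which carries retinoic acid to its nuclear receptors, rose from 16.8 and 25.6 to 305 and 297 CPM (3.83 ± 0.28, adjusted p = 0.00538). Both IWR1 libraries held more than either other group for this pair. Cyp26c1, which degrades retinoic acid, rose from 0.0243 and 0.082 to 2.34 and 1.52 CPM (5.14 ± 0.70, adjusted p = 0.0128) and was at 3.15 and 1.64 CPM in control. Rarb, a receptor that retinoic acid itself induces, fell from 52.1 and 49.7 to 18.7 and 27.6 CPM (-1.14 ± 0.24, adjusted p = 0.0324), and Dhrs3, which retinoic acid also induces, fell from 72.6 and 85.9 to 21.3 and 40.2 CPM (-1.37 ± 0.32, adjusted p = 0.0386). These 2 calls were lost without any single library other than IWR1 replicate 2, and exons of Rarb overlap Top2b on the opposite strand. The higher count was 3 without KO replicate 1 or a control library, and the calls on Crabp1, Crabp2 and Cyp26c1 were made in all 6 fits that left out a library.

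Several BMP response genes rose. Of 22 genes of the BMP and TGF-beta list 7 were called higher and 2 lower, beside 5.77% and 8.08% of all genes. The median was 0.063, and the share called lower was near that of all genes. The higher ones were Msx1, Msx2, Id1, Id2, Id3 and Id4, which BMP signalling induces, and Nog, a secreted BMP antagonist. Msx2 rose from 3.01 and 3.83 to 25 and 23.2 CPM (2.82 ± 0.25, adjusted p = 0.00675). Msx1 rose from 10.7 and 10.3 to 44.1 and 39.4 CPM (1.99 ± 0.20, adjusted p = 0.00675). Id3 rose from 60.2 and 81.3 to 342 and 234 CPM (2.03 ± 0.30, adjusted p = 0.0143). Tgfb1 was among the 2 called lower, and the lower count was 0 or 1 without any library other than IWR1 replicate 2. The count of higher members was 5 without IWR1 replicate 1 or KO replicate 2 and 6 to 8 in the other fits.

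Of 12 Notch genes 4 were called higher and 0 lower, 33.3% beside 13.9% of all genes called either way. Nrarp, a Notch target and feedback inhibitor, rose from 4.92 and 3.14 to 17.6 and 24.7 CPM (2.39 ± 0.34, adjusted p = 0.0138). Of 13 Hedgehog genes 3 were called higher and 1 lower, 30.8% in all. Shh (chromosome 5, 28456815 to 28467256), the ligand of floor plate and notochord, rose from 4.32 and 1.97 to 20.7 and 11.9 CPM (2.37 ± 0.45, adjusted p = 0.0231), against 28.2 and 23.6 CPM in control. Its receptor and target Ptch1 went from 57.3 and 27.4 to 139.6 and 126 CPM (1.65 ± 0.37, adjusted p = 0.0352). Ihh, a ligand of visceral endoderm and cartilage, fell from 5.39 and 1.86 to 0.352 and 0.248 CPM (-3.57 ± 0.59, adjusted p = 0.0176). Of 20 FGF and ERK genes 2 rose and 2 fell, shares near the 5.77% and 8.08% of all genes. Fgf15, a ligand of the neural tube, rose from 1.63 and 4.02 to 79.5 and 61.4 CPM (4.65 ± 0.46, adjusted p = 0.00675), and Fgf1 fell from 12.9 and 15.4 to 1.2 and 2.95 CPM (-2.78 ± 0.45, adjusted p = 0.0172). The Notch count was 1 without IWR1 replicate 1 or KO replicate 2 and 2 without KO replicate 1. The higher Hedgehog count was 0 without IWR1 replicate 1 or KO replicate 2 and 1 without IWR1 replicate 2 or a control library. The higher FGF count was 1 without IWR1 replicate 1 and 4 without IWR1 replicate 2. The calls on Nrarp, Fgf15 and Fgf1 were made in all 6 fits that left out a library. That on Shh was lost without KO replicate 2 or IWR1 replicate 1, that on Ihh without IWR1 replicate 1, and that on Ptch1 without any library other than KO replicate 1.

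The Wnt pathway, which IWR1 acts on, is taken from ligand to target. Of 18 Wnt ligands tested 7 were called higher and 2 lower, beside 5.77% and 8.08% of all genes. The median log2 fold change was 1.91. The summed level of the list did not rise, at 177.6 and 204.1 CPM in untreated KO and 129.7 and 194.5 CPM with IWR1. Wnt1 (chromosome 15, 98789857 to 98793837), the dorsal midline ligand of midbrain and spinal cord, was at 0.218 and 0.383 CPM in untreated KO, 19.1 and 39.1 CPM with IWR1 and 1.21 and 0.847 CPM in control. The log2 fold change was 6.60 ± 0.54 (adjusted p = 0.00573). Wnt3a, of the dorsal neural tube and the tail bud, went from 0.17 and 0.273 to 5.11 and 16.4 CPM (5.59 ± 0.95, adjusted p = 0.0186), with the 2 IWR1 libraries apart from each other. Wnt3 rose from 0.922 and 0.683 to 4.86 and 8.08 CPM (3.00 ± 0.43, adjusted p = 0.0139). Wnt10b had 0 counts in untreated KO and 0.952 and 0.744 CPM with IWR1, at least 22.4-fold higher with untreated KO set at 3 counts in all. Wnt2, a ligand of cardiac and lung mesoderm, fell from 70 and 90.2 to 17.9 and 16.3 CPM (-2.23 ± 0.25, adjusted p = 0.00867). The other ligands called were Wnt6, Wnt7b and Wnt9b, higher, and Wnt11, lower. The 7 higher calls were 3 without IWR1 replicate 1, where Wnt10b was among those lost, and 4 without either KO library, where Wnt3a was. The lower count was 4 without IWR1 replicate 2 and 1 without any other library.

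Of 21 genes for Wnt receptors, R-spondins and ligand secretion 3 were called higher and 1 lower, 19% in all beside 13.9% of all genes, with a median of 0.037. Fzd10, a Frizzled receptor of the dorsal neural tube, rose from 6.57 and 5.44 to 32.3 and 44.2 CPM (2.67 ± 0.28, adjusted p = 0.00791). Fzd9 rose from 0.485 and 0.301 to 4.31 and 3.53 CPM (3.30 ± 0.43, adjusted p = 0.0117). Fzd3, which guides axons, rose from 31.7 and 26.1 to 75.3 and 81.2 CPM (1.44 ± 0.23, adjusted p = 0.0172), a call lost without IWR1 replicate 1 or KO replicate 2. Fzd6 fell from 12.8 and 13.3 to 5.26 and 5.62 CPM (-1.26 ± 0.23, adjusted p = 0.0203), a call made without IWR1 replicate 2 but lost without any other library.

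Secreted and surface inhibitors split, with 7 of 17 tested called higher and 3 lower, 58.8% in all beside 13.9% of all genes. Sost, which binds the LRP co-receptors, rose from 0.097 and 0.0547 to 2.55 and 3.28 CPM (5.19 ± 0.51, adjusted p = 0.00675). Draxin, a guidance protein of the dorsal neural tube that also antagonises Wnt, rose from 1.65 and 2 to 8.03 and 15.8 CPM (2.71 ± 0.41, adjusted p = 0.0155). Dkk3 fell from 123 and 131 to 37.4 and 41.9 CPM (-1.68 ± 0.18, adjusted p = 0.00807). These 3 calls were made in all 6 fits that left out a library, while the higher count was 3 without IWR1 replicate 1 and 4 without either KO library, and the lower count was 1 without IWR1 replicate 1 or KO replicate 2.

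In the core of the pathway, the tankyrases that IWR1 inhibits, the destruction complex and the nuclear effectors, 0 of 22 tested genes were called higher and 1 lower, and 3 had an unadjusted p under 0.05 (edgeR). The call makes 4.55% of the list, below the 13.9% of all genes called. DESeq2 called 0 higher and 2 lower. The gene called by edgeR was Amer1, a membrane adaptor of the destruction complex, at 133 and 95.2 CPM in untreated KO and 37.4 and 57.9 CPM with IWR1 (-1.26 ± 0.32, adjusted p = 0.0484). Its call was lost without any library other than IWR1 replicate 2, and under 6 of the other settings. Axin1, the scaffold itself, was at 64.3 and 64 CPM untreated and 91.4 and 85.6 CPM with IWR1 (0.46 ± 0.17, adjusted p = 0.115). These are RNA levels, while IWR1 acts on Axin at the protein level.

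Genes that canonical Wnt signalling directly induces were more often higher than lower. Of 23 tested, 9 were called higher and 1, Prickle1, lower, beside 5.77% and 8.08% of all genes, and the median log2 fold change was 0.77. Axin2, the most general of these targets, was at 15.1 and 11.3 CPM in untreated KO, 21.6 and 42.7 CPM with IWR1 and 15.5 and 17.3 CPM in control. Both IWR1 libraries stood above the other 4, but the 2 differed from each other and the change did not pass the test (1.28 ± 0.35, adjusted p = 0.0583). Lef1, a nuclear partner of beta-catenin and a target of it, went from 8.1 and 6.07 to 18 and 19.8 CPM (1.41 ± 0.24, adjusted p = 0.0176). Ccnd1 (chromosome 7, 144929931 to 144939925), the cyclin of G1 entry, rose from 39 and 31.7 to 215 and 225 CPM (2.64 ± 0.20, adjusted p = 0.00538), against 116 and 112 CPM in control. Its exons overlap those of Lto1 on the opposite strand. Ccnd2 rose from 175 and 149 to 419 and 511 CPM (1.52 ± 0.22, adjusted p = 0.0137). Apcdd1, a surface inhibitor of Wnt, rose from 11 and 9.4 to 29.5 and 32.8 CPM (1.61 ± 0.24, adjusted p = 0.0143). The count of 9 was 4 without either KO library and 6 without IWR1 replicate 1 or a control library. The call on Lef1 was lost without KO replicate 2 or IWR1 replicate 1. Those on Ccnd1, Ccnd2 and Apcdd1 were made in all 6 of these fits.

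**Figure D3:**
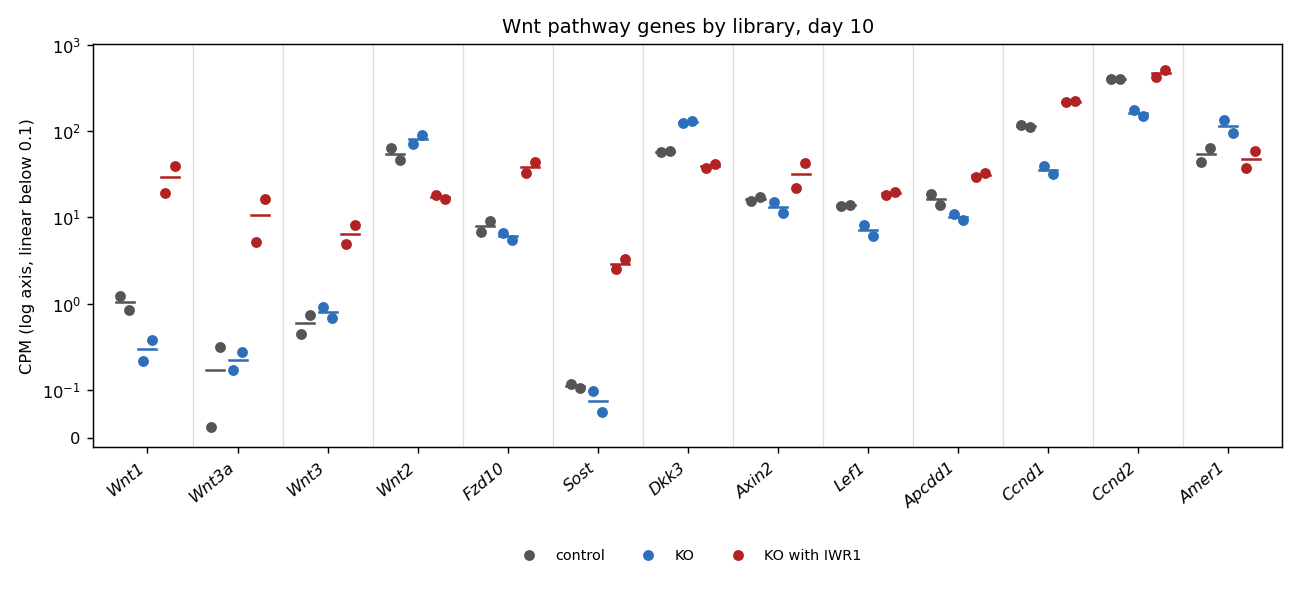
CPM of 13 Wnt ligands, receptors, inhibitors, targets and core genes in each day-10 library (points) with group means (bars), on an axis that is logarithmic above 0.1 CPM. IWR1 libraries (red) lie above untreated KO (blue) for 10 genes, Axin2 among them at 21.6 and 42.7 against 15.1 and 11.3 CPM, and below it for Wnt2, Dkk3 and Amer1.

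Promoter sequence was read for these targets from RefSeq windows of 300 bases on GRCm38.p6, the assembly that mm10 names, from 250 bases before to 50 after the gene start. A window was found for 12388 of the 17022 genes tested, among them 15 of the 23 Wnt targets. The core of the TCF and LEF site, CTTTGA or CTTTGT on either strand, was in the windows of 29% of 676 genes called higher, 22.6% of 1010 called lower and 24.3% of all. Of the 15 Wnt targets it was in 2, Sp5 and Dkk1, whose windows are shown because they hold several matches. A match is a description of letters and not a bound site. Sp5 and Dkk1 were picked for this after their values were seen. The windows, 5′ to 3′ on the strand of the gene with the cores in capitals, are of Sp5 (chr2:70474673-70474972, plus strand, 5 cores) and Dkk1 (chr19:30549447-30549746, minus strand, 3 cores).
Sp5: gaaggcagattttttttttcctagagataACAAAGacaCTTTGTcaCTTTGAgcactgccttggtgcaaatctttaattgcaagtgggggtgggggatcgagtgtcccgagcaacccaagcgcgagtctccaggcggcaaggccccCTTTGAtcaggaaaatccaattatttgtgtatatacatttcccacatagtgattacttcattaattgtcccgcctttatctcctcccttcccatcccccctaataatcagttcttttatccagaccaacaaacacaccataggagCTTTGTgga
Dkk1: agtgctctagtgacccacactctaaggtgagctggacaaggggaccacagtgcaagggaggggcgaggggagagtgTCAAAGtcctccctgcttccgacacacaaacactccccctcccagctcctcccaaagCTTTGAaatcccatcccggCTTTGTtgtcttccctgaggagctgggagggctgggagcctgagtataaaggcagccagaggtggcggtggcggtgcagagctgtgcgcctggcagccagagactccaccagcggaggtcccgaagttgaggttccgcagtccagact
The first core of Sp5, at bases 30 to 35 of the window, overlaps a GATA motif (AGATAA), and no other core shown overlaps a GATA, T-box (AGGTGT) or CArG motif. Sp5, a transcription factor that Wnt induces, was at 0.34 and 0.383 CPM in untreated KO and 1.32 and 0.992 CPM with IWR1 (1.68 ± 0.43, adjusted p = 0.0477). Dkk1, a secreted inhibitor that Wnt induces, was at 5.8 and 5.66 CPM untreated and 47.6 and 20.1 CPM with IWR1 (2.56 ± 0.44, adjusted p = 0.0187). For both genes the IWR1 libraries stood above the untreated ones. The call on Sp5 was lost without any single library other than IWR1 replicate 2, and that on Dkk1 was lost without either KO library.

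Matrix and fibroblast genes fell. Of 25 tested, 17 were called lower and 1, Thy1, higher, beside 8.08% of all genes called lower, and the median log2 fold change was -2.54. The summed level of the list was 40550 and 32200 CPM in untreated KO, 3055 and 6468 CPM with IWR1, and 12980 and 14670 CPM in control. Untreated KO libraries thus stood above control and IWR1 libraries below it. Col1a1 (chromosome 11, 94936224 to 94953042), the main chain of fibrillar collagen, went from 9824 and 6684 to 259 and 759.9 CPM (-4.02 ± 0.59, adjusted p = 0.0142). Lox, the enzyme that cross-links collagen and elastin, went from 356 and 385 to 5.65 and 14.1 CPM (-5.23 ± 0.50, adjusted p = 0.00675). Postn, a matricellular protein of fibroblasts and heart valves, went from 1323 and 1066 to 96.5 and 189 CPM (-3.07 ± 0.38, adjusted p = 0.0107). Lum, a small proteoglycan, went from 796 and 1222 to 63.9 and 145 CPM (-3.27 ± 0.46, adjusted p = 0.0136). In each of these the groups did not overlap, and IWR1 replicate 1 was the lowest library. The count of lower members was 11 without IWR1 replicate 1 and 12 to 21 in the other fits.

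Genes that mark the epicardium and mesothelium had negative fold changes in 8 of 11 cases but mostly missed the threshold: 1 was called lower and 0 higher, with a median of -1.91. The share called lower, 9.09%, was near the 8.08% of all genes called lower. Wt1, the epicardial regulator, was at 97 and 101 CPM in untreated KO, 10.7 and 42 CPM with IWR1 and 8.91 and 12.4 CPM in control (-1.91 ± 0.58, adjusted p = 0.0734). Bnc1, of mesothelium, was at 141 and 133 CPM untreated and 3.31 and 26.7 CPM with IWR1 (-3.19 ± 0.85, adjusted p = 0.0529). Msln, mesothelin, was the one called, at 5.39 and 13 CPM untreated and 0.518 and 0.965 CPM with IWR1 (-3.64 ± 0.60, adjusted p = 0.0179). For Wt1 and Bnc1, IWR1 replicate 1 was far below replicate 2. Without IWR1 replicate 2, 8 of the list were called lower, and without IWR1 replicate 1 the call on Msln was lost.

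Hippo pathway and YAP target genes fell more often than they rose. Of 17 tested, 6 were called lower and 2 higher, beside 8.08% and 5.77% of all genes. Ccn1, a matricellular YAP target, fell from 53.5 and 55.2 to 24.7 and 19.3 CPM (-1.30 ± 0.20, adjusted p = 0.0159), a call made in all 6 fits that left out a library. Axl fell from 469 and 384 to 59.4 and 159 CPM (-1.97 ± 0.45, adjusted p = 0.037). Lats2, the kinase that restrains YAP, fell from 46.2 and 42.5 to 12.7 and 20.4 CPM (-1.42 ± 0.27, adjusted p = 0.0241). The calls on Axl and Lats2 were lost without any library other than IWR1 replicate 2. The lower count was 1 without IWR1 replicate 1, KO replicate 1 or either control library, and 3 without KO replicate 2. The higher count was 0 or 1 in all 6 of these fits. Of 14 imprinted growth genes 5 were called lower and 0 higher, 35.7% in all beside 13.9% of all genes. Igf2, a fetal growth factor, went from 19959 and 23184 to 5472 and 7151 CPM (-1.77 ± 0.35, adjusted p = 0.0248), with a predicted gene overlapping its exons. Plagl1, an imprinted regulator, fell from 378 and 108 to 7.14 and 9.1 CPM (-4.90 ± 0.63, adjusted p = 0.0117). Without IWR1 replicate 1, 0 of these 5 were called lower, and the call on Igf2 was lost without any single library other than IWR1 replicate 2. Without KO replicate 1 the count was 2, and without either control library it was 3.

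Visceral endoderm, gut and liver genes fell. Of 26 tested, 17 were called lower and 1 higher, beside 8.08% and 5.77% of all genes. The median log2 fold change was -3.14. Afp (chromosome 5, 90490737 to 90508907), alpha-fetoprotein of yolk sac and fetal liver, was at 1040 and 449.7 CPM in untreated KO, 42.7 and 98.6 CPM with IWR1 and 3343 and 2778 CPM in control (-3.40 ± 0.57, adjusted p = 0.0185). Rbp4, the plasma carrier of retinol, went from 162 and 92 to 11.1 and 9.73 CPM (-3.61 ± 0.36, adjusted p = 0.00675). Apob, the structural apolipoprotein of lipoproteins, went from 268 and 33.6 to 1.04 and 1.49 CPM (-6.91 ± 1.09, adjusted p = 0.0168), the untreated libraries being far apart. Apoa1 went from 101 and 50.6 to 6.79 and 8.82 CPM (-3.28 ± 0.43, adjusted p = 0.0117). For these 4 genes control was at or above untreated KO in at least 1 library, and both IWR1 libraries were the lowest of the 6. Foxa2, a factor of definitive endoderm, floor plate and notochord, was the member called higher, from 3.27 and 2.08 to 20.9 and 13.6 CPM (2.68 ± 0.34, adjusted p = 0.0112), near the control level of 18.1 and 17.9 CPM. Without IWR1 replicate 1 the count of lower members was 2 and the calls on Afp, Apob and Apoa1 were lost. Those on Rbp4 and Foxa2 were made in all 6 fits that left out a library, and the other fits gave 14 to 18 lower members.

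The 15 largest falls among genes with a mean of at least 5 CPM were Tff3, S100g, Apob, Nepn, Apoa4, Cldn2, Cubn, Lox, Trpc5os, Plagl1, Gnb3, Spp2, Habp2, Cpz and Gsta3. Tff3 (chromosome 17, 31125306 to 31129646), a trefoil peptide of mucosal epithelium, was at 15.4 and 9.43 CPM in untreated KO and had 3 counts in the IWR1 libraries together. The ratio of untreated to treated counts per library size was 355, with a 95% counting interval of 121 to 1727. S100g, a calcium-binding protein of absorptive epithelium, fell from 25.4 and 7.3 to 0.145 and 0.0827 CPM (-7.09 ± 0.80, adjusted p = 0.00856). Nepn, a small proteoglycan of gut endoderm, fell from 19.6 and 14.8 to 0.145 and 0.248 CPM (-6.47 ± 0.35, adjusted p = 0.00517) and stood at 332 and 284 CPM in control. Cldn2, a tight junction protein, fell from 14.7 and 8.83 to 0.248 and 0.193 CPM (-5.70 ± 0.50, adjusted p = 0.00675). Exons of Habp2 overlap those of Nrap. Calls on Apob, Apoa4, Plagl1 and Habp2 were lost without IWR1 replicate 1, and that on Cubn without either IWR1 library. The other 10 were made in all 6 fits that left out a library.

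**Figure D4:**
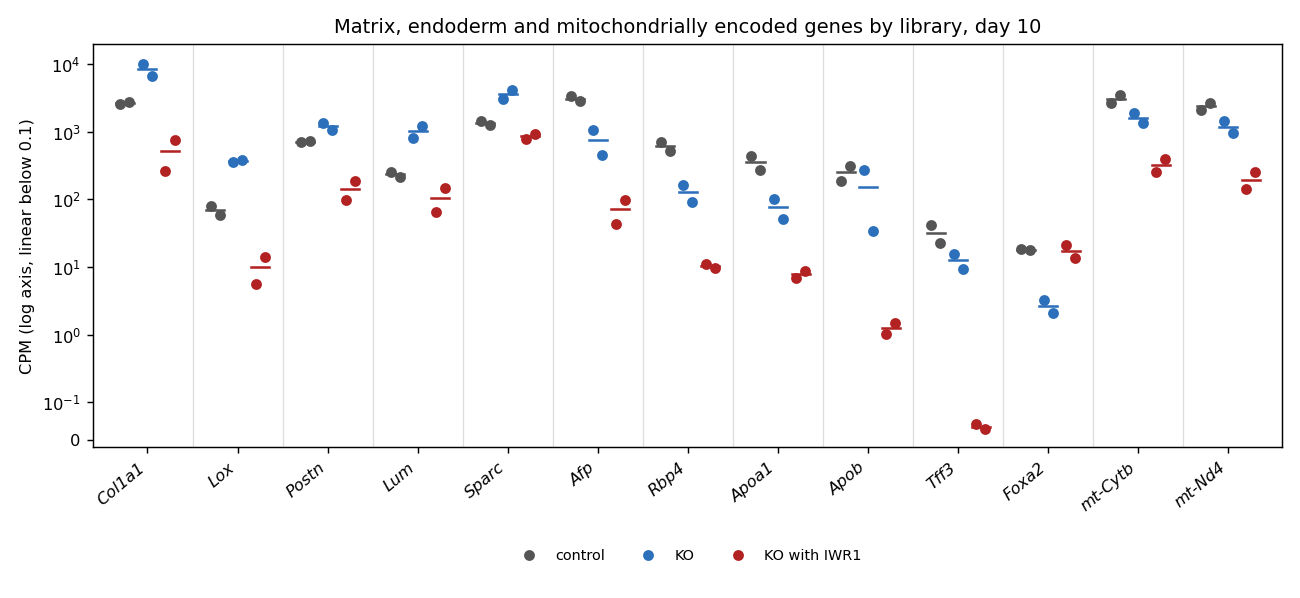
CPM of 13 matrix, endoderm and mitochondrially encoded genes in each day-10 library (points) with group means (bars), on an axis that is logarithmic above 0.1 CPM. Both IWR1 libraries (red) lie below both untreated KO (blue) and both control (grey) libraries for every gene shown but Foxa2, which IWR1 libraries held at 20.9 and 13.6 CPM.

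Epithelial genes moved both ways, with 3 of 17 called higher and 3 lower, 35.3% in all beside 13.9% of all genes. Krt19, a keratin of simple epithelium, fell from 125 and 162 to 38.6 and 36.4 CPM (-1.94 ± 0.21, adjusted p = 0.00807), and Cldn3, a tight junction protein, rose from 1.38 and 1.45 to 6.65 and 4.8 CPM (2.01 ± 0.30, adjusted p = 0.0139). Both calls were made in all 6 fits that left out a library. The higher count was 2 without IWR1 replicate 1 or KO replicate 1 and 1 without KO replicate 2 or a control library, and the lower count was 1 without any library other than IWR1 replicate 2.

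Cardiac transcription factors moved both ways. Of 21 tested, 4 were called higher and 6 lower, 47.6% in all beside 13.9% of all genes. Nkx2-5 (chromosome 17, 26838664 to 26845009), a core factor of heart muscle, was at 0.243 and 0.437 CPM in untreated KO, 1.72 and 1.24 CPM with IWR1 and 18.7 and 15.5 CPM in control. It rose with IWR1 (2.13 ± 0.39, adjusted p = 0.0212) and was still below control (-3.52 ± 0.35, adjusted p = 0.00523). Tbx5, of the first heart field, was at 6.43 and 4.76 CPM untreated, 6.31 and 6.86 CPM with IWR1 and 40 and 37.7 CPM in control, and no difference between the KO groups was called (0.23 ± 0.23, adjusted p = 0.501). Tbx20, another T-box factor of heart, fell from 135 and 86.2 to 17.2 and 24.3 CPM (-2.41 ± 0.31, adjusted p = 0.0114), against 132 and 159.8 CPM in control. Hand1, of heart and extraembryonic mesoderm, fell from 79.5 and 71.1 to 21.8 and 9.23 CPM (-2.28 ± 0.40, adjusted p = 0.0193). Gata4, of heart and endoderm, fell from 130.4 and 91.3 to 29.8 and 56.6 CPM (-1.36 ± 0.34, adjusted p = 0.0465). Irx3, also a gene of the neural tube, rose from 6.11 and 4.87 to 23.8 and 29.8 CPM (2.29 ± 0.25, adjusted p = 0.00807). Calls on Tbx20, Hand1 and Irx3 were made in all 6 fits that left out a library. That on Nkx2-5 was lost without control replicate 1, KO replicate 1 or IWR1 replicate 1, and that on Gata4 without any library other than IWR1 replicate 2. The lower count was 2 in each of those 5 fits, and the higher count was 1 without IWR1 replicate 1 or control replicate 1 and 2 without control replicate 2 or KO replicate 1.

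Taken as a sum, contractile genes of heart muscle were lower in both KO groups than in control. Of 32 sarcomere genes and natriuretic peptides tested, 6 were called higher and 4 lower with IWR1, 31.2% in all beside 13.9% of all genes. Of the 32, 25 had a positive fold change, and the median was 1.08. The summed level of the list was 1019 and 1484 CPM in untreated KO, 1332 and 1093 CPM with IWR1, and 8096 and 6739 CPM in control. On this sum the KO groups overlapped. Tnnt2 (chromosome 1, 135836354 to 135852260), cardiac troponin T, was at 43.4 and 78 CPM in untreated KO, 73.6 and 69.5 CPM with IWR1 and 508 and 455 CPM in control (0.24 ± 0.29 between the KO groups, adjusted p = 0.598). Myh6, the atrial myosin heavy chain, was at 2.6 and 17.5 CPM untreated, 14.1 and 28.1 CPM with IWR1 and 1199 and 1383 CPM in control (1.07 ± 0.79, adjusted p = 0.375). Myl2, the ventricular light chain, was at 0.218 and 12.5 CPM untreated, 22.6 and 30.2 CPM with IWR1 and 175 and 152 CPM in control (2.06 ± 1.22, adjusted p = 0.279), and the untreated libraries were far apart. Nppa, a natriuretic peptide of atrium, was at 0.0728 and 0.109 CPM untreated and 0.393 and 0.138 CPM with IWR1 (1.56 ± 0.71, adjusted p = 0.176).

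The 6 sarcomere genes called higher were Actc1, Myl4, Myl7, Mybpc3, Nebl and Xirp1. Actc1, cardiac actin, was at 9.51 and 30.3 CPM in untreated KO, 131 and 124 CPM with IWR1 and 1455 and 1191 CPM in control (2.67 ± 0.53, adjusted p = 0.0259). Myl7, the atrial light chain, was at 5.85 and 20.6 CPM untreated, 117 and 60.5 CPM with IWR1 and 724 and 363 CPM in control (2.75 ± 0.68, adjusted p = 0.0451). Mybpc3, a thick filament protein, was at 5.19 and 5 CPM untreated, 10.1 and 11.7 CPM with IWR1 and 224 and 219 CPM in control (1.10 ± 0.19, adjusted p = 0.0183). Nebl, of the Z-disc, was at 1.84 and 3.61 CPM untreated, 13.7 and 8.43 CPM with IWR1 and 102 and 116 CPM in control (2.03 ± 0.39, adjusted p = 0.0235). In all 4 the IWR1 libraries lay above untreated KO and below control. The lower ones included Cryab, a small heat shock protein, which fell from 56.7 and 84.5 to 9.19 and 11.5 CPM (-2.77 ± 0.28, adjusted p = 0.00729) and has exons that overlap Hspb2 on the opposite strand. They also included Des, desmin, which fell from 165 and 182 to 58.5 and 79.7 CPM (-1.33 ± 0.22, adjusted p = 0.0182). Control held Cryab at 66.1 and 53.7 CPM and Des at 154 and 136 CPM. For both genes the IWR1 libraries lay below control and the untreated KO libraries did not. The count of 6 was 1 without IWR1 replicate 1, 2 without KO replicate 1, 3 without a control library, 8 without IWR1 replicate 2 and 11 without KO replicate 2. The lower count was 1 without IWR1 replicate 1 and 2 without KO replicate 2. The call on Mybpc3 was lost without any 1 of the KO and control libraries, that on Myl7 without any library other than KO replicate 2 or IWR1 replicate 2, that on Actc1 without IWR1 replicate 1, that on Nebl without KO replicate 1 or IWR1 replicate 1, and that on Des without KO replicate 2 or IWR1 replicate 1.

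A promoter window was found for 26 of the 32 sarcomere genes, and 6 of them, Actc1, Fhl2, Ldb3, Myl3, Myl7 and Myom1, held a CArG box, the binding motif of serum response factor. The box was in 1.78% of the windows of genes called higher, 0.891% of those called lower and 1.35% of all 12388. The windows of Actc1 (chr2:114052826-114053125, minus strand) and Myl7 (chr11:5898733-5899032, minus strand) are shown 5′ to 3′ on the strand of the gene, with the box in capitals, because both genes rose. They were picked after their values were seen. Fhl2 also holds the box but was called lower, from 23.2 and 32.4 to 10.1 and 8.65 CPM (-1.56 ± 0.24, adjusted p = 0.0167). That call was lost without IWR1 replicate 1, and Ldb3, Myl3 and Myom1 were not called higher.
Actc1: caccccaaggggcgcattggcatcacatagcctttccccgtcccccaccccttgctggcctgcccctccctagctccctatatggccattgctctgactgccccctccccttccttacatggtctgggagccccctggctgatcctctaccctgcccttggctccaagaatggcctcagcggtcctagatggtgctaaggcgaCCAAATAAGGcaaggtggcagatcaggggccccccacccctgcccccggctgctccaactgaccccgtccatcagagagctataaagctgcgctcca
Myl7: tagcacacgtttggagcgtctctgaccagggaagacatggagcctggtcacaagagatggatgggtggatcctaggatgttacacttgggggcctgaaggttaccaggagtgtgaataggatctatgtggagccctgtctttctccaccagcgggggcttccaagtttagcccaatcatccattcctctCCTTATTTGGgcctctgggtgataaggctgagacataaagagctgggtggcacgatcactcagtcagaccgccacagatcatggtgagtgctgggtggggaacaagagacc
Neither box overlaps a TCF core, GATA or T-box motif, and the match says nothing of binding in these cells.

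**Figure D5:**
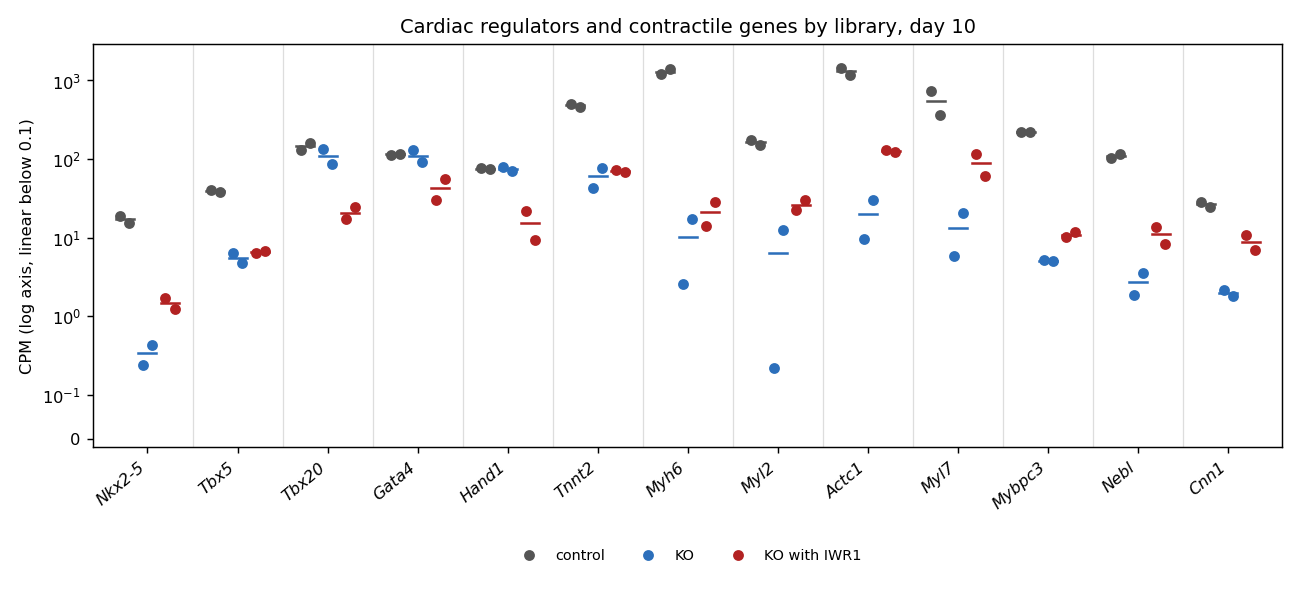
CPM of 12 cardiac regulators and sarcomere genes and of the smooth muscle gene Cnn1 in each day-10 library (points) with group means (bars), on an axis that is logarithmic above 0.1 CPM. Control libraries (grey) hold the highest values for Nkx2-5, Tbx5 and all the contractile genes, for Actc1 at 1455 and 1191 CPM, while IWR1 libraries (red) are the lowest for Tbx20, Gata4 and Hand1.

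Of the ion channel, smooth muscle and skeletal muscle genes 20.8%, 35.7% and 40% were called either way, beside 13.9% of all genes. Of 24 cardiac calcium handling and channel genes 3 were called higher and 2 lower. Kcnj3, a potassium channel subunit of atrium that neurons also use, rose from 1.14 and 0.793 to 5.61 and 4.05 CPM (2.32 ± 0.34, adjusted p = 0.0142), a call made in all 6 fits that left out a library. Slc8a1, the sodium-calcium exchanger, fell from 92.7 and 74.3 to 35.4 and 50.9 CPM (-0.95 ± 0.24, adjusted p = 0.048), against 316 and 318 CPM in control. Of 14 smooth muscle genes 2 were called higher and 3 lower. Cnn1, calponin, rose from 2.16 and 1.83 to 10.9 and 6.97 CPM (2.16 ± 0.30, adjusted p = 0.0131), whereas Acta2, smooth muscle actin, fell from 493 and 511 to 269 and 209 CPM (-1.07 ± 0.22, adjusted p = 0.0272). The call on Cnn1 was made in all 6 of these fits, that on Slc8a1 was lost without any library other than IWR1 replicate 2 and that on Acta2 in all 6 of them. Exons of a predicted gene overlap Slc8a1. In these fits the higher channel count was 1 to 3 and the lower 0 or 1, the higher smooth muscle count was 1 or 2, and the lower was 3 without IWR1 replicate 2, 0 without KO replicate 1 and 1 otherwise. Of 10 skeletal muscle genes 2 rose and 2 fell. The risers were Pax3 and Pax7, both also genes of dorsal neural tube and crest. Pax3 went from 0.17 and 0.711 to 15.7 and 23.7 CPM (5.50 ± 0.63, adjusted p = 0.009) and Pax7 from 0.0485 and 0.0547 to 2.19 and 6.31 CPM (6.28 ± 0.76, adjusted p = 0.0104). The fallers were Tnni2 and Tnnt3, troponins of fast muscle. Tnnt3 fell from 5.87 and 6.2 to 1.64 and 1.41 CPM (-1.98 ± 0.28, adjusted p = 0.013), and the call on Tnni2 was lost without IWR1 replicate 1.

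Genes of other mesoderm rose in part. Of 13 presomitic and paraxial mesoderm genes 7 were called higher and 1 lower, 61.5% in all beside 13.9% of all genes. Meox1, of somites, rose from 3.15 and 3.14 to 27.9 and 19.6 CPM (2.91 ± 0.36, adjusted p = 0.0112). Lfng, which modulates Notch in the segmentation clock, rose from 4 and 4.73 to 22.7 and 21.1 CPM (2.33 ± 0.23, adjusted p = 0.00675). Dll3, a Notch pathway gene of presomitic mesoderm and of neural cells, rose from 0.728 and 0.902 to 5.28 and 9.67 CPM (3.19 ± 0.41, adjusted p = 0.0114). Of 8 intermediate mesoderm and kidney genes 4 were called higher and 0 lower, 50% beside the same 13.9%. Six2, of kidney progenitors, rose from 0.631 and 0.847 to 7 and 4.44 CPM (2.95 ± 0.39, adjusted p = 0.0117). Pax2, also a gene of midbrain and hindbrain, had 0 counts in untreated KO and 0.869 and 1.41 CPM with IWR1, at least 28.5-fold higher with untreated KO set at 3 counts in all. Calls on Meox1, Lfng, Dll3 and Six2 were made in all 6 fits that left out a library, while that on Pax2 was lost without either KO library or IWR1 replicate 1. The paraxial count was 3 without KO replicate 2 and 4 without KO replicate 1 or a control library. The kidney count was 1 without IWR1 replicate 1 or a KO library and 2 in the other 3 fits.

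Of 11 primitive streak genes 2 were called higher and 0 lower, 18.2% beside 13.9% of all genes called either way. T, brachyury, was at 0.315 and 1.83 CPM in untreated KO, 23.4 and 10.1 CPM with IWR1 and 1.59 and 3.18 CPM in control (3.98 ± 0.85, adjusted p = 0.0316). Its call was lost without KO replicate 1 or IWR1 replicate 1, where the count for the list was 0. The count was 1 without a control library, 3 without KO replicate 2 and 4 without IWR1 replicate 2. Cartilage and bone precursor genes split, 5 of 12 called higher and 3 lower, 66.7% in all beside 13.9% of all genes. Col2a1, the collagen of cartilage and notochord, rose from 8.56 and 8.34 to 71.7 and 102 CPM (3.36 ± 0.25, adjusted p = 0.00538), near the control level of 77.1 and 70.3 CPM. Sox6 fell from 70.6 and 51.2 to 10.6 and 15.9 CPM (-2.20 ± 0.31, adjusted p = 0.0138), a call lost without IWR1 replicate 1. The higher cartilage count was 1 to 3 in the fits that left out a library, and the lower count was 0 without IWR1 replicate 1 and 1 without KO replicate 1.

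Of 21 pluripotency genes 9 were called lower and 1 higher, 47.6% in all beside 13.9% of all genes. Zfp42, a marker of naive stem cells, fell from 14.6 and 15.1 to 3.95 and 3.8 CPM (-1.93 ± 0.22, adjusted p = 0.00853). Dppa5a fell from 96.9 and 83.6 to 28.8 and 18 CPM (-1.95 ± 0.27, adjusted p = 0.0131). Lin28a (chromosome 4, 134003330 to 134018841), an RNA-binding protein of stem cells that early neural progenitors also make, rose from 28 and 22.2 to 231 and 110.4 CPM (2.77 ± 0.39, adjusted p = 0.0137), against 43.3 and 57 CPM in control. These 3 calls were made in all 6 fits that left out a library. The lower count was 2 without IWR1 replicate 1, 3 without KO replicate 1 or a control library and 6 without IWR1 replicate 2.

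Of the blood and endothelial genes 4.55% and 10% were called either way, below the 13.9% of all genes, and of the macrophage genes 26.7%. Of 22 globin and blood progenitor genes 1 was called lower and 0 higher. It was Hba-x, an embryonic globin of a family with similar copies, at 917 and 722 CPM untreated and 408 and 383 CPM with IWR1 (-1.05 ± 0.27, adjusted p = 0.0491), and its call was lost in all 6 fits that left out a library. Without IWR1 replicate 2, 4 of this list were called lower. Of 20 endothelial genes 1 rose and 1 fell. Kdr, the VEGF receptor of endothelium and early mesoderm, fell from 167 and 115 to 47.9 and 39 CPM (-1.70 ± 0.28, adjusted p = 0.0179), a call lost without IWR1 replicate 1. Etv2, the regulator of blood and vessel fate, went from 0.315 and 0.601 to 6.07 and 1.46 CPM (3.04 ± 0.74, adjusted p = 0.0434), a call lost without any single library other than IWR1 replicate 2. All 15 macrophage genes had a negative fold change, with a median of -1.01, and 4 were called lower. Mrc1, the mannose receptor, was at 88.1 and 99.5 CPM in untreated KO and 17.8 and 39 CPM with IWR1 (-1.72 ± 0.36, adjusted p = 0.0309). The macrophage count was 0 without IWR1 replicate 1, KO replicate 2 or a control library, 2 without KO replicate 1 and 8 without IWR1 replicate 2.

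Mitochondrially encoded transcripts were lower with IWR1. Of 13 tested 12 were called lower, beside 8.08% of all genes, with a median log2 fold change of -2.29. Their summed level was 23010 and 16940 CPM in untreated KO, 4014 and 6093 CPM with IWR1, and 28490 and 35070 CPM in control. mt-Cytb, a subunit of respiratory complex III, went from 1861 and 1324 to 252 and 392 CPM (-2.31 ± 0.36, adjusted p = 0.0165). mt-Nd4, of complex I, went from 1408 and 950.3 to 139.6 and 249.6 CPM (-2.60 ± 0.40, adjusted p = 0.0159), with mt-Nd4l overlapping it. Without IWR1 replicate 1, 0 of the 12 were called, and the other fits gave 9 to 12. In the same libraries other lists were lower too, among them matrix, endoderm, pluripotency and macrophage genes. The part of the mitochondrial share in other results was not tested.

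Among cell cycle, glycolysis and hypoxia genes 34.8%, 27.8% and 28.6% were called either way, beside 13.9% of all genes. For muscle metabolism and cholesterol synthesis genes the shares were 20% and 0%. Of 23 cell cycle genes 8 were called higher and 0 lower, and 22 had a positive fold change (median 0.81). Mcm5, of the replicative helicase, went from 136 and 136 to 354 and 266 CPM (1.19 ± 0.22, adjusted p = 0.0207), and Rrm2, which makes deoxynucleotides, from 140.2 and 156 to 388 and 298 CPM (1.21 ± 0.21, adjusted p = 0.0197). The count was 13 without IWR1 replicate 2 and 0 without any other single library. Of 18 glycolysis genes 4 were called higher and 1 lower. Ldha, lactate dehydrogenase, went from 403 and 398 to 1342 and 880.3 CPM (1.47 ± 0.34, adjusted p = 0.0375). The higher count was 0 without IWR1 replicate 1, KO replicate 2 or a control library and 1 without KO replicate 1. Of 14 hypoxia response genes 3 were called higher and 1 lower, the higher count being 0 without either KO library or IWR1 replicate 1. Of 15 muscle metabolism genes 0 rose and 3 fell. Pdk4, which turns cells from glucose to fatty acid oxidation, fell from 9.65 and 9.89 to 1.37 and 1.76 CPM (-2.65 ± 0.27, adjusted p = 0.00675), a call made in all 6 fits that left out a library. In those fits the lower count was 3 without IWR1 replicate 2 and 1 otherwise. Of 16 cholesterol synthesis genes 0 were called either way by edgeR, although 5 had an unadjusted p under 0.05, and DESeq2 called 4 higher.

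Calls either way made up 18.8% of the p53 targets and 16.7% of the interferon genes, beside 13.9% of all genes. For stress response and motile cilia genes the shares were 11.1% and 9.09%, below that of all genes. Of 16 p53 target genes 3 were called lower and 0 higher. Fas, a death receptor, fell from 21.9 and 36.3 to 3.64 and 2.81 CPM (-3.17 ± 0.35, adjusted p = 0.00853), against 6.44 and 4.69 CPM in control, and Cdkn1a, the cell cycle inhibitor p21, fell from 182 and 172 to 77.2 and 79.8 CPM (-1.17 ± 0.19, adjusted p = 0.0172). The lower count was 1 without IWR1 replicate 1 or KO replicate 1, which is where the call on Cdkn1a was lost. Of 18 stress response genes 2, Fos and Fosb, were called lower and 0 higher. Fos, an immediate early gene, fell from 23.3 and 30.1 to 8.22 and 8.82 CPM (-1.65 ± 0.23, adjusted p = 0.0123), a call lost without IWR1 replicate 1. The stress count was 0 without that library, 2 without IWR1 replicate 2 and 1 otherwise. All 12 interferon response genes had a negative fold change and 2 were called lower, Ifit2 and Ifit3, and of 11 genes of motile cilia 1, Ccdc40, was called higher. The interferon count was 0 without IWR1 replicate 1 or KO replicate 2, 1 without a control library and 4 without IWR1 replicate 2. The call on Ccdc40 was lost without any single library other than IWR1 replicate 2.

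The smallest p-values in each direction, whatever the size of the change, were also found on genes outside the lists. Dpysl5, a protein of growing axons, rose from 4.17 and 4.78 to 56.4 and 68.4 CPM (3.80 ± 0.25, adjusted p = 0.00517), and Adgrv1 rose from 1.6 and 1.83 to 20.6 and 16.9 CPM (3.45 ± 0.27, adjusted p = 0.00538). Dpp4, a surface peptidase, fell from 41.1 and 51.9 to 2.32 and 2.76 CPM (-4.20 ± 0.27, adjusted p = 0.00517), against 70.7 and 55 CPM in control. Clu, clusterin, fell from 687 and 654 to 89.3 and 82.1 CPM (-2.97 ± 0.25, adjusted p = 0.00573). Tinagl1, a matricellular protein, fell from 86.1 and 105 to 12.5 and 15.2 CPM (-2.79 ± 0.22, adjusted p = 0.00558). All 5 calls were made in all 6 fits that left out a library.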

How the data were processed

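Bulk RNA-seq of day-10 embryoid bodies was used as the estimated counts per gene deposited by the authors. The submitters' processing notes name kallisto 0.46.2 and the mm10 build. Per the labels' protocols, oligo-dT selected the mRNA and the kit was either TruSeq RNA or a stranded mRNA one. Which, and whether counting used strand, is not settled, so overlapping genes cannot be told apart. Counts were deposited as whole numbers. They were tested in edgeR 4.0.16 (R 4.3.3, with TMM, filterByExpr, robust quasi-likelihood test, Benjamini-Hochberg adjustment) in 1 fit of 6 libraries. The fit had 3 residual degrees of freedom and a common biological coefficient of variation of 0.248. Gene positions are from GENCODE vM21, which matched 35968 of 36047 genes. Members and gene lists were chosen with earlier results of these data known. Named genes were index genes, up to 5 members per list with the smallest p, the 15 largest rises and falls of at least 5 CPM whose groups did not overlap, and the 10 smallest p in each direction. Predicted genes, Riken clones and pseudogenes were passed over in those last 2 groups. Alternatives covered scaling, filters, DESeq2 1.42.0, limma 3.58.1, a replicate block and leaving out each library. A few named genes are not reported here.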

Additional observations from a re-analysis of the deposited data

How the results depend on the processing

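Of 17022 genes tested, 2358 were called, 983 higher and 1375 lower. No filter beyond 1 count gave 3697 calls (1585 higher, 2112 lower), DESeq2 4206 (1870 higher, 2336 lower), and the 4 KO libraries without control 1001 (469 higher, 532 lower). Library totals in place of TMM, chosen after seeing the data, gave 889 lower. Leaving out 1 library gave 548 to 3056 calls, 318 to 1304 higher and 230 to 1752 lower. The numbers of the replicates are only a number in the labels: deviations of same-numbered libraries correlated at -0.322 between KO and IWR1, -0.297 between KO and control and 0.242 between IWR1 and control. With a replicate block 1233 genes were called (508 higher, 725 lower). With the KO numbers crossed in the replicate block, chosen after seeing the data, 7268 were called (3551 higher, 3717 lower). The cause of these differences was not tested. RLE and upper quartile scaling, a filter of 1 CPM, limma voom, a fit without robust estimation and a fold change minimum gave 2029 to 2654 calls. Of the 202 named genes called, 40 lost the call under the block, 54 without control and 19 under library totals. With 2 libraries a group, small changes may be missed.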
